A study of Mus musculus with 10 samples.

Results

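The slow-fiber contractile genes and myoglobin were followed in the tibialis anterior muscle of mice with and without a Lewis lung carcinoma (LLC) tumor. The set was chosen by gene symbol and holds 10 of the 39179 gene identifiers listed for each sample. All 10 passed the filter on low counts and are among the 12690 genes tested. They are the light chains Myl2 and Myl3, the troponin genes Tnnt1, Tnni1 and Tnnc1, the tropomyosin gene Tpm3, the calcium-handling genes Atp2a2 and Casq2, the Z-disc gene Myoz2, and Mb, which encodes myoglobin.

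Skeletal muscle is a mosaic of fibers. Slow (type I) fibers contract slowly, resist fatigue, are rich in mitochondria and myoglobin, and build their sarcomere from a set of paralogs also used in the heart. Fast (type II) fibers use another set, and the tibialis anterior of the mouse is a fast muscle in which type I fibers are rare. Most contractile genes thus come as a slow and a fast partner, whereas myoglobin, the oxygen-binding protein of muscle, marks oxidative fibers of both kinds.

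Each mouse gave 1 library of total RNA from tibialis anterior. The 4 Control mice were injected with PBS and labeled day 0 of tumor development, and the 6 LLC mice received LLC cells, a mouse lung tumor line, under the skin of both flanks and were labeled day 23. The sample labels name C57BL/6J mice injected at 10 weeks of age, whereas the series text names C57BL/10 males inoculated at 8 weeks and studied after 22 days, and the files could not settle which holds. No transgene and no pooling of animals is named for either group, and the LLC mice had cachexia, the wasting of body and muscle in cancer.

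The label of the muscle was checked on the myosin heavy chains. Myh4, the chain of type IIB fibers, made up 74.1% to 81.7% of the length-scaled level of Myh7, Myh2, Myh1 and Myh4 in Control and 76.4% to 92.9% in LLC. Myh7, the defining chain of slow fibers, made up 0.00243% to 0.00662% in Control and 0.000926% to 0.00300% in LLC. The libraries carried mostly the chains of a fast muscle, and the slow chain was a very small share of them, though detected in every library. Total counts ranged from 16693209 to 21303084 per library, and 3 counts corresponded to at most 0.180 CPM (reads scaled to a common library total). Chi-square per degree of freedom was 8.36 to 194.5 between pairs of LLC libraries and 3.89 to 8.64 between pairs of Control libraries. The library of LLC 1 held 5 of the 6 values flagged below as far from the rest of their group. Results that turn on LLC 1 are thus given with and without it.

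Values per sample are CPM scaled by TMM factors, which correct for differences in library makeup. A gene was called where it differed at least 1.5-fold and edgeR's quasi-likelihood test, adjusted by Benjamini-Hochberg over all 12690 genes, gave a p no higher than 0.05. Fold changes are LLC against Control on the log2 scale, with standard error (SE). The animals are the replicates.

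Per kilobase of exon, Mb was by far the most abundant member in Control, at 2714 CPM per kb. Myl3 followed at 24.6, Myoz2 at 9.43 and Casq2 at 9.02 CPM per kb. Atp2a2, at 3.86, and Tpm3, at 3.68 CPM per kb, are used outside slow fibers too. The troponins Tnnc1, at 1.84, Tnnt1, at 1.60, and Tnni1, at 0.437 CPM per kb, and the light chain Myl2, at 1.197 CPM per kb, were the lowest. Myoz2 and Casq2, Atp2a2 and Tpm3, Tnnc1 and Tnnt1, and Tnnt1 and Myl2 are neighbors in this order that differed by less than the larger of their SDs among Control mice.

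**Figure D1:**
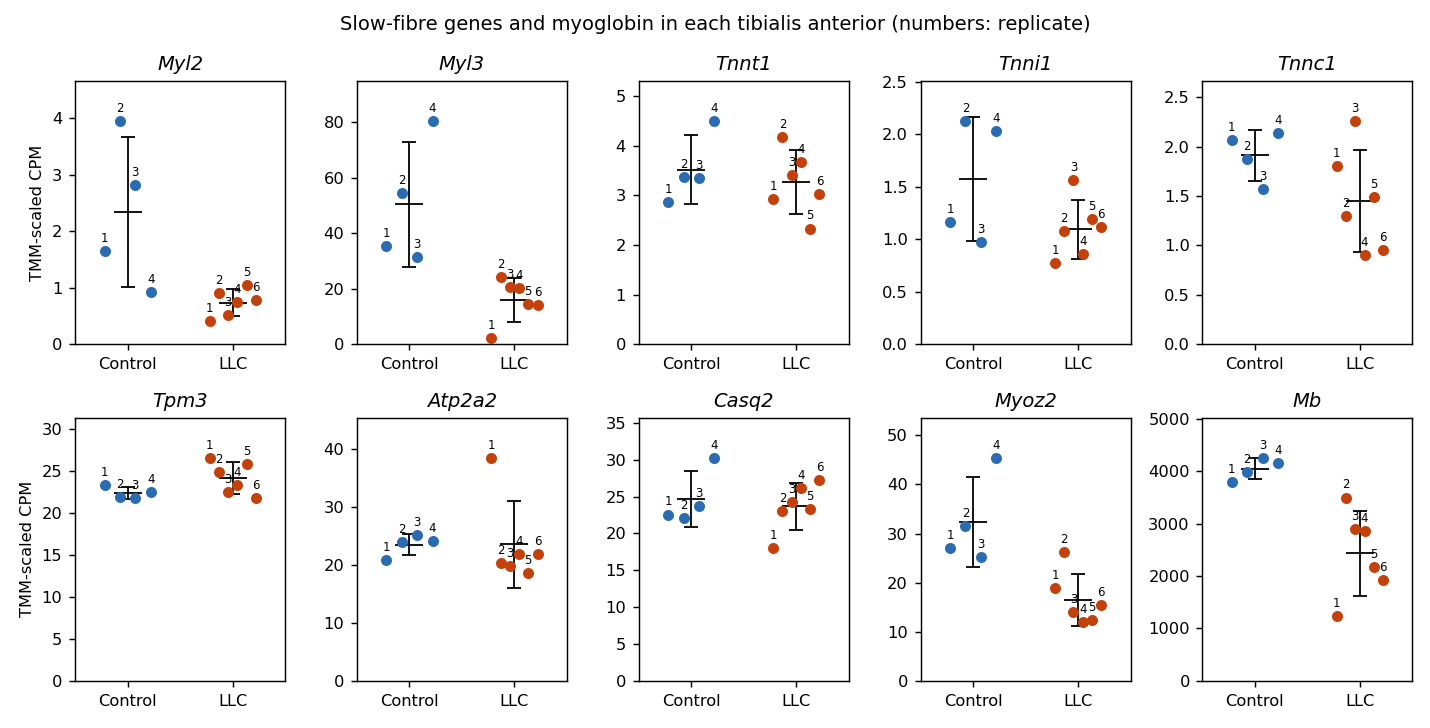
TMM-scaled CPM of each of the 10 genes, 1 panel a gene on a linear axis from 0, with numbered points for the 4 Control and 6 LLC mice and the group mean with its SD in black. Myl3 and Mb lie lower in every LLC library than in any Control library, whereas Tpm3, Casq2 and Tnnt1 overlap.

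Myl2 and Myl3 encode the slow regulatory and essential myosin light chains, which stiffen and tune the lever arm of the myosin head. The fitted level of both was 3.16-fold lower in LLC, but Myl2 was the one that was called, and it rests on far fewer reads. Myl2 (ENSMUSG00000013936, chr5:122100951-122113472, plus strand, mm10) was at 1.64, 3.95, 2.81 and 0.931 CPM in Control 1 to 4. It was at 0.411, 0.904, 0.521, 0.756, 1.04 and 0.783 CPM in LLC 1 to 6. The 2 groups overlapped, since Control 4 was below LLC 5, and the other 5 LLC libraries were below every Control library. Its log2 fold change was -1.66 ± 0.37 (SE, n = 4 and 6), with an edgeR adjusted p of 0.0221 and a 95% interval of -2.48 to -0.84. These values rest on 17 to 80 reads in Control and 8 to 21 reads in LLC. The call was lost without Control 2 (edgeR adjusted p = 0.0807), without Control 3 (0.074) and, at the threshold itself, without LLC 6.

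Myl3 (ENSMUSG00000059741, chr9:110741861-110769798, plus strand) was at 35.3, 54.6, 31.3 and 80.4 CPM in Control 1 to 4. It was at 2.16, 24.3, 20.5, 20.3, 14.3 and 14.1 CPM in LLC 1 to 6. Every LLC library was below every Control library, and LLC 1 was far below the rest. For Myl3 the log2 fold change was -1.66 ± 0.46 (SE, n = 4 and 6), and the edgeR adjusted p of 0.0531 just missed the threshold. DESeq2 called the gene (adjusted p = 0.0337), and so did edgeR without LLC 1, at -1.43 (adjusted p = 0.00446). An antisense gene, Pth1r, shares 4.65% of the exonic length of Myl3 and had 9 to 19 reads per library. The RefSeq promoter of Myl3 is shown because this gene had the clearest separation among the contractile members. The window is the 200 bases before the start (GRCm38.p6, chr9:110763478-110763677, plus strand), with capitals at CCACCC and CATTCC matches on either strand, of which 1 pair overlaps.
Myl3: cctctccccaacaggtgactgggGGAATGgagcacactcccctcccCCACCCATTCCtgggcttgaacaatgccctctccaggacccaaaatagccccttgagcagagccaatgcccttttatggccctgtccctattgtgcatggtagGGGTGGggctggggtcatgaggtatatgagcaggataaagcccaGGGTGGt

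The troponin complex holds the thin filament off until calcium binds, with Tnnt1 (slow troponin T) tying it to tropomyosin, Tnni1 (slow troponin I) inhibiting and Tnnc1 (slow and cardiac troponin C) binding calcium. None of the 3 genes was called. Tnnt1 (ENSMUSG00000064179, chr7:4504570-4516382, minus strand) was at 2.86, 3.36, 3.35 and 4.49 CPM in Control 1 to 4 and at 2.93, 4.18, 3.42, 3.68, 2.33 and 3.02 CPM in LLC 1 to 6. Control and LLC covered nearly the same range, with a log2 fold change of -0.11 ± 0.18 (SE, edgeR adjusted p = 0.707) and a 95% interval of -0.50 to 0.28. The sign turned without Control 4 (0.03).

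Tnni1 (ENSMUSG00000026418, chr1:135779434-135810989, plus strand) was at 1.17, 2.12, 0.973 and 2.03 CPM in Control 1 to 4 and at 0.771, 1.07, 1.56, 0.857, 1.19 and 1.12 CPM in LLC 1 to 6. Controls 2 and 4 stood above all LLC libraries, while Controls 1 and 3 lay among them. The difference, at -0.53 ± 0.27 on the log2 scale (SE, edgeR adjusted p = 0.218), had a 95% interval of -1.11 to 0.06. Tnnc1 (ENSMUSG00000091898, chr14:31208312-31211729, plus strand) was at 2.07, 1.88, 1.57 and 2.14 CPM in Control 1 to 4 and at 1.80, 1.299, 2.26, 0.907, 1.49 and 0.950 CPM in LLC 1 to 6. Of the 6 LLC libraries, 4 were below every Control library and LLC 3 was above every one. For Tnnc1 the log2 fold change was -0.40 ± 0.25 (SE, edgeR adjusted p = 0.301), with a 95% interval of -0.94 to 0.14.

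Tpm3 (ENSMUSG00000027940, chr3:90072649-90100902, plus strand) encodes the slow-fiber tropomyosin, which lies along the actin filament, and also cytoskeletal isoforms made in most cells, which gene counts do not separate. It was at 23.3, 21.9, 21.8 and 22.6 CPM in Control 1 to 4 and at 26.6, 24.9, 22.5, 23.4, 25.8 and 21.8 CPM in LLC 1 to 6. Tpm3 was the steadiest member in Control, with a highest-to-lowest ratio of 1.07. Its log2 fold change was 0.11 ± 0.08 (SE, edgeR adjusted p = 0.395), with a 95% interval of -0.07 to 0.29.

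Atp2a2 and Casq2 handle calcium in the sarcoplasmic reticulum. Atp2a2 encodes SERCA2, the calcium pump of slow fibers and heart with an isoform made in most cells, and Casq2 encodes the cardiac and slow-fiber calsequestrin, which stores calcium in the lumen. Atp2a2 (ENSMUSG00000029467, chr5:122453513-122502225, minus strand) was at 20.8, 23.9, 25.1 and 24.2 CPM in Control 1 to 4 and at 38.4, 20.3, 19.8, 21.9, 18.6 and 21.9 CPM in LLC 1 to 6. LLC 1 was above every other library, and the other 5 LLC libraries lay below Controls 2, 3 and 4. Over all libraries the log2 fold change was 0.00 ± 0.19 (SE, edgeR adjusted p = 0.997, 95% interval -0.41 to 0.41), and it was -0.19 (adjusted p = 0.137) without LLC 1. Upper-quartile scaling also turned its sign (-0.04).

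Casq2 (ENSMUSG00000027861, chr3:102086415-102146514, plus strand) was at 22.6, 22.1, 23.7 and 30.2 CPM in Control 1 to 4 and at 18.1, 23.0, 24.3, 26.2, 23.4 and 27.2 CPM in LLC 1 to 6. Control 4 was the highest of all libraries and LLC 1 the lowest. Its log2 fold change was -0.06 ± 0.13 (SE, edgeR adjusted p = 0.789), with a 95% interval of -0.34 to 0.22, and the sign turned without LLC 1 (0.02) or Control 4 (0.05). The promoter of Casq2 is shown with that of Myoz2 because these were the members with a match to the MEF2 motif.

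Myoz2 (ENSMUSG00000028116, chr3:123006206-123035015, minus strand) encodes calsarcin-1, a Z-disc protein of slow fibers and heart that binds the phosphatase calcineurin. It was at 27.1, 31.6, 25.2 and 45.4 CPM in Control 1 to 4. It was at 18.9, 26.2, 14.1, 12.0, 12.5 and 15.4 CPM in LLC 1 to 6. LLC 2 lay within the Control range, and the other 5 LLC libraries were below it. The mean was 32.3 ± 9.15 CPM in Control (SD, n = 4) and 16.5 ± 5.36 CPM in LLC (SD, n = 6). On the log2 scale the fold change was -0.97 ± 0.23 (SE), a 1.96-fold lower level that was called (edgeR adjusted p = 0.0284), with a 95% interval of -1.47 to -0.47. DESeq2 called it too (adjusted p = 0.00302). The edgeR call was lost without any of Control 1 (0.0519), Control 2 (0.0679), Control 4 (0.105), LLC 3 (0.0516), LLC 5 (0.0651) or LLC 6 (0.0669), with values of the adjusted p in parentheses. The windows of Casq2 (chr3:102086215-102086414, plus strand) and Myoz2 (chr3:123034988-123035187, minus strand) are RefSeq promoters on GRCm38.p6 read along the gene, with the MEF2 match in capitals.
Casq2: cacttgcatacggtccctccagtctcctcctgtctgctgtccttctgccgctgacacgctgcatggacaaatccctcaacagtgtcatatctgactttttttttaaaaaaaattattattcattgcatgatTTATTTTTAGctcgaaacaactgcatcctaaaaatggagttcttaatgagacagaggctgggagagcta
Myoz2: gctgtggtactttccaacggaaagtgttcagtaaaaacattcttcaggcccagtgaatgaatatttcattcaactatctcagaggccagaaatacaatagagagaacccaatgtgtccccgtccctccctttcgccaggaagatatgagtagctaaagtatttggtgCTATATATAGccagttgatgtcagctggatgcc

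Mb (ENSMUSG00000018893, chr15:77015487-77050670, minus strand) was at 3802, 3989, 4254 and 4149 CPM in Control 1 to 4. It was at 1243, 3498, 2903, 2859, 2175 and 1927 CPM in LLC 1 to 6. The Control libraries were nearly level and every LLC library was below them, with LLC 1 lowest and LLC 2 closest to Control. The mean was 4049 ± 197 CPM in Control (SD, n = 4) and 2434 ± 809 CPM in LLC (SD, n = 6). In the fit Mb had a log2 fold change of -0.73 ± 0.23 (SE), or 1.66-fold, which missed the threshold in edgeR (adjusted p = 0.0812). It was called by DESeq2 (adjusted p = 0.0293) and, in edgeR, without LLC 1 at -0.59 (adjusted p = 0.0207) or without LLC 2 at -0.86 (adjusted p = 0.0404). On the other strand, Gm49540 shares 27.6% of the exonic length of Mb and has no values in the tables used here, and Apol6 shares 4.29% and had 145 to 663 reads per library. In bulk muscle, fewer fibers of a type and less RNA per fiber cannot be told apart, which holds for every level given here. The promoter of Mb is shown because Mb is the most abundant member (GRCm38.p6, chr15:77022788-77022987, minus strand, read along the gene), with the CCACCC match in capitals.
Mb: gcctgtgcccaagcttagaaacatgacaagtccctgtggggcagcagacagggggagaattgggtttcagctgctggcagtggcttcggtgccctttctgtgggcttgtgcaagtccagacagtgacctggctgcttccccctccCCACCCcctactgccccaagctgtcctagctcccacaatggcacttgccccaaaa

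Counted together, 2 of the 10 members were called lower in LLC (Myl2 and Myoz2), and none was called higher by edgeR or DESeq2. Over all tested genes 3.99% were called lower and 1.65% higher. At an unadjusted p under 0.05 in edgeR the members were 4, namely Myl2, Myl3, Myoz2 and Mb, all with lower values in LLC, as were 14.6% of all tested genes. DESeq2 called these 4, where it called 5.23% of all genes lower. The sign was negative for 8 members and positive for Tpm3 and, at 0.00 (-0.04 with upper-quartile factors), Atp2a2. The median was -0.46, against 0.0019 over all 12690 genes. For 2 members, Myl3 and Mb, every LLC library was below every Control library, as for 9.57% of all genes. None lay above Control in every LLC library, against 6.4% of all genes. The number of calls moved between 0 and 4 when 1 library was left out: it was 0 without Control 2 or LLC 6, 4 without LLC 1, and 1 without Control 1, Control 3, Control 4, LLC 3 or LLC 5.

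**Figure D2:**
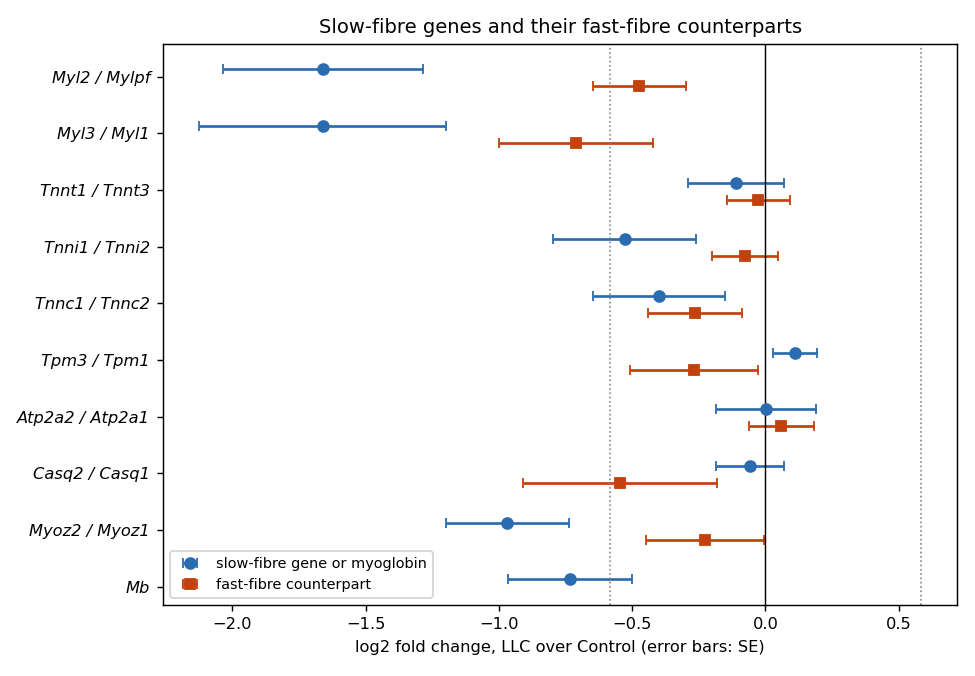
Log2 fold change of LLC against Control for each slow member and its fast partner, with error bars for the SE and dotted lines at 1.5-fold. Myl2, Myl3, Myoz2 and Mb lie furthest below 0, at -1.66, -1.66, -0.97 and -0.73, while Tnnt1, Tpm3, Atp2a2 and Casq2 lie near 0.

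The slow genes varied among the Control mice themselves. The median SD of log2 CPM in Control was 0.24 for the members and 0.13 for all tested genes, and in LLC it was 0.40 and 0.28. The spread was uneven across the set. The Control SD of Myl2 was at percentile 99.7 of all tested genes, that of Myl3 at 98.7, Tnni1 at 97.3 and Myoz2 at 92.1, whereas Mb was at 20.7 and Tpm3 at 7.04. The highest Control library exceeded the lowest 4.24-fold for Myl2, 2.57-fold for Myl3, 2.18-fold for Tnni1 and 1.81-fold for Myoz2, but 1.12-fold for Mb.

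The variance among Control libraries was set against that of counting, where 1 is counting error alone and differences between animals add to it. It was 184 times for Myl3, 180 times for Mb, 47.7 times for Myoz2, 14.3 times for Myl2 and 10.8 times for Casq2. For Tnni1, with 18 to 43 reads in Control, it was only 4.15 times, for Atp2a2 2.75 times and for Tnnt1 2.52 times. The percentiles of the SD make no allowance for the number of reads. The variance ratio was below 1 for Tnnc1 (0.624) and Tpm3 (0.422). This ratio rises with the number of reads, and Mb had the most reads of the members. Control 4 was the highest Control library for 5 members, namely Myl3, Tnnt1, Tnnc1, Casq2 and Myoz2, and the lowest for Myl2. Control 3 was the lowest for 5 members. Without Control 4 the median Control SD of the members dropped to 0.15. Myh7 and Myh2 were also highest in Control 4, at 5.15 and 927 CPM, against 1.75 to 3.75 and 318 to 444 CPM in the other Controls. In LLC, LLC 2 was the highest library for 4 members, and LLC 1 was the lowest for 5 (Myl2, Myl3, Tnni1, Casq2 and Mb) and the highest for Tpm3 and Atp2a2.

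**Figure D3:**
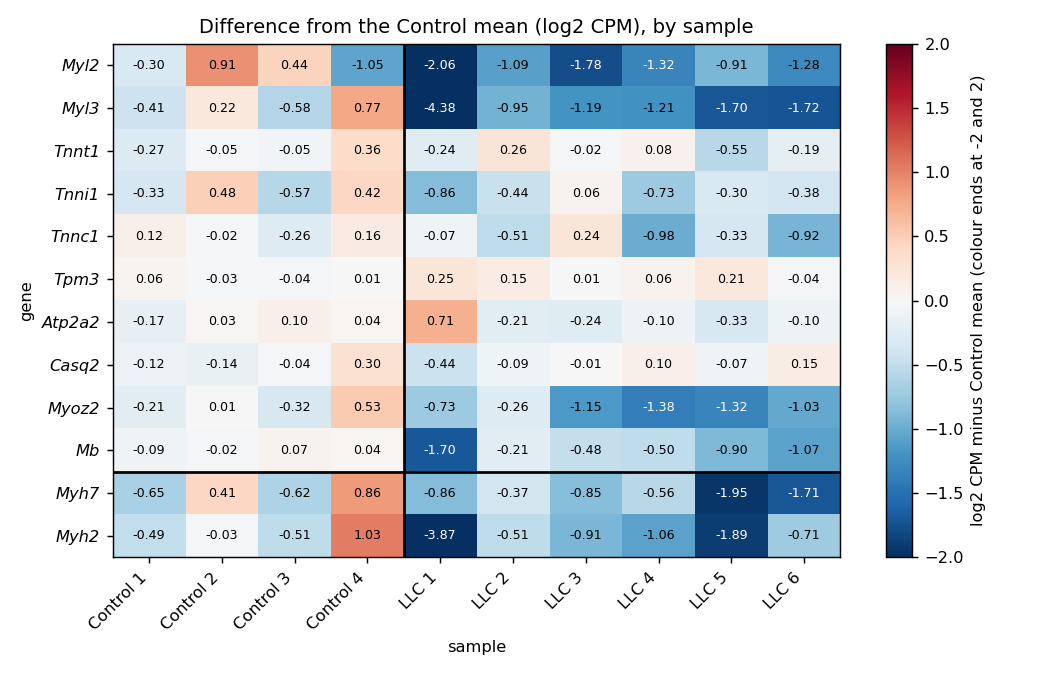
Heat map of each member, with Myh7 and then Myh2 in the rows below the line, in each of the 10 libraries, as log2 CPM minus the Control mean of that gene. Myl3 in LLC 1 is the deepest cell, at -4.38, and Tpm3 and Tnnt1 stay near 0 in most libraries.

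The fast partners give the level of the same role in type II fibers. In Control the fast partner exceeded the slow one per kilobase of exon 11100-fold for troponin I, 6730-fold for troponin T, 5560-fold for the regulatory light chain and 1460-fold for the calcium pump. The excess was 616-fold for tropomyosin, 189-fold for the essential light chain, 135-fold for calsequestrin and 104-fold for the calsarcins. Troponin C showed 4.00-fold, but Tnnc2 had only 64 to 115 reads per library and shares 74.0% of its exonic length with Ube2c on the other strand. Its level, and with it the Tnnc1 to Tnnc2 ratio, is thus uncertain. Also on the other strand, Rabep2 (421 to 656 reads per library) shares 21.9% of the exonic length of Atp2a1. Gm17224 (14 to 52 reads) shares 8.0% of that of Casq1. The levels and ratios of these 2 genes carry the same kind of uncertainty, over a smaller part of the gene.

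None of the 9 fast partners was called by edgeR or DESeq2. Of all tested genes edgeR called 3.99% lower and 1.65% higher, so 0 of 9 does not set these genes apart. Of the 9, 2 (Mylpf and Myl1) had an unadjusted p under 0.05 in edgeR, which 27.4% of all tested genes had in either direction. Myl1, the fast essential light chain, had a log2 fold change of -0.71 ± 0.29 (SE, edgeR adjusted p = 0.144). Mylpf, the fast regulatory light chain, had -0.47 ± 0.17 (adjusted p = 0.116). Both lay below Control in every LLC library, as did 9.57% of all tested genes. Without LLC 1 both passed on p but not on size, Myl1 at -0.53 (edgeR adjusted p = 0.0134) and Mylpf at -0.36 (edgeR adjusted p = 0.0244). Casq1 (-0.54 ± 0.36), Tpm1 (-0.27 ± 0.24), Tnnc2 (-0.26 ± 0.18) and Myoz1 (-0.23 ± 0.22) had adjusted p of 0.337 to 0.509. Tnni2 (-0.08 ± 0.12), Tnnt3 (-0.03 ± 0.12) and Atp2a1 (0.06 ± 0.12) lay near 0, and Tnnt3 turned sign without LLC 1. The median of the 9 was -0.26.

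Taking the slow gene over its fast partner within each library removes the library scaling. For Myl3 over Myl1 the log2 CPM ratio was -8.16, -7.51, -8.20 and -6.86 in Control 1 to 4. It was -9.88, -8.20, -8.60, -8.50, -8.62 and -8.56 in LLC 1 to 6. Every LLC library was below Control, narrowly for LLC 2, and this was the only pair of the 9 without overlap, or 1 of 2 when Control 4, LLC 1 or LLC 3 was left out. The difference of the means was -1.04, and -0.81 without LLC 1. For Myl2 over Mylpf it was -1.03, with 3 of 6 LLC libraries below Control.

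For Myoz2 over Myoz1 the difference of mean log2 ratios was -0.69, with 4 of 6 LLC libraries below Control, and -0.96 without LLC 1, whose Myoz1 was low. Atp2a2 over Atp2a1 had 5 libraries below Control and LLC 1 above, with a difference of -0.10 (-0.29 without LLC 1). The ratio moved the other way for Casq2 over Casq1, at 0.69 (0.38 without LLC 1), and for Tpm3 over Tpm1, at 0.45 (0.19 without LLC 1). The differences for troponin T, I and C were -0.08, -0.39 and -0.17. These ratios are descriptions and were not tested.

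**Figure D4:**
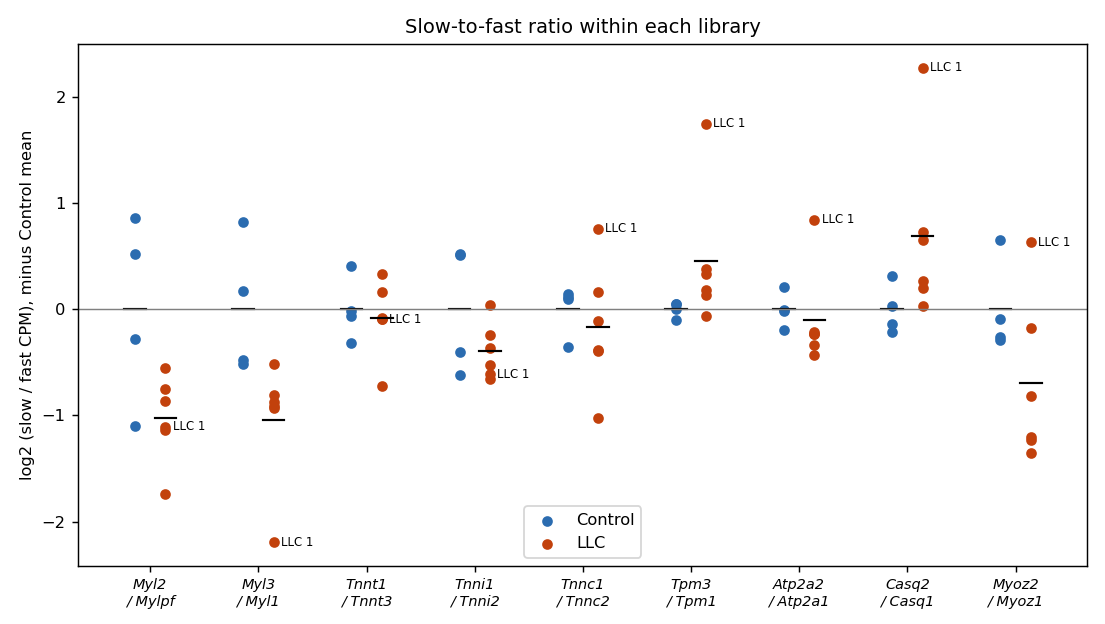
Log2 of slow over fast CPM within each library, shown as the difference from the Control mean of each of the 9 pairs, with points for Control and LLC mice and LLC 1 marked. Only Myl3 over Myl1 separates the groups, and LLC 1 lies far above the other LLC libraries for Tpm3 over Tpm1 and Casq2 over Casq1.

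Other genes of slow and oxidative fibers were read from a list of 20, all tested. Of these, 2 were called lower, 1 was called higher and 17 were not called, with a median log2 fold change of -0.40. Over all tested genes 3.99% were called lower and 1.65% higher. Actn2, an alpha-actinin that crosslinks actin at the Z-disc, was at 917, 825, 928 and 1112 CPM in Control and 555 to 686 CPM in LLC, without overlap. Its log2 fold change was -0.63 ± 0.11 (SE, edgeR adjusted p = 0.00546), and the call without Control 4 was lost on size alone (-0.55, adjusted p = 0.0242). Myom3, an M-band protein of slow and intermediate fibers, was lower at -1.04 ± 0.28 (SE, adjusted p = 0.047). Pdk4, a kinase that turns pyruvate dehydrogenase off when fat is burned, was higher at 1.23 ± 0.33 (SE, adjusted p = 0.048). Both calls were near the threshold and were lost without any one of the Control libraries or without LLC 5 or LLC 6, and for Pdk4 also without LLC 3 and for Myom3 without LLC 4. The count over the list of 20 was 0 without Control 4, 7 without LLC 1, and 1 without Control 1, Control 2, Control 3, LLC 5 or LLC 6.

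The most abundant genes of this list were the shared beta-tropomyosin gene Tpm2, at -0.54 ± 0.18 (SE, edgeR adjusted p = 0.0948), and Car3, a carbonic anhydrase of slow fibers, at -0.40 ± 0.24 (adjusted p = 0.289). Mybpc1, slow myosin-binding protein C, had -0.40 ± 0.12 (adjusted p = 0.0696), and Ckmt2, the mitochondrial creatine kinase, had -1.03 ± 0.35 (adjusted p = 0.0948). Each of these 4 was below Control in every LLC library, as were 6 of the 20 genes of the list and 9.57% of all tested genes. None of these 4 was called by edgeR. Myh7 was added as the defining slow myosin after its values were seen. It was at 1.75, 3.75, 1.78 and 5.15 CPM in Control and 1.49, 2.15, 1.51, 1.86, 0.644 and 0.783 CPM in LLC, with -1.14 ± 0.38 (SE, adjusted p = 0.0916). DESeq2 called Myh7 (adjusted p = 0.0404) and Ckmt2 (adjusted p = 0.036), and 6 of the 20 genes in all, beside 1052 of all 12690 tested genes. Without LLC 1, edgeR called Ckmt2 too (-0.83, adjusted p = 0.0189). Myh2, the chain of type IIA fibers, was likewise added after its values were seen. It had -1.32 ± 0.51 (SE, edgeR adjusted p = 0.127) and was not called by DESeq2 (adjusted p = 0.122). Without LLC 1 edgeR called Myh2 (-1.09, adjusted p = 0.0417), and without Control 4 it had -0.85 (edgeR adjusted p = 0.352).

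Regulators of fiber type were read from a list of 30, which holds the calcineurin and NFAT genes, the MEF2 factors, PGC-1 coactivators and the repressors and activators of slow genes. None was called by edgeR or DESeq2, where edgeR called 3.99% of all tested genes lower and 1.65% higher. At an unadjusted p under 0.05 there were 7 of 30, beside 27.4% of all tested genes, the median log2 fold change was -0.03, and 16 values were negative. Mef2c, a MEF2 factor, had -0.39 ± 0.26 (SE, edgeR adjusted p = 0.346), Tbx15, a factor of glycolytic fibers, -0.23 ± 0.14 (0.298), Tead1, which binds MCAT elements, -0.15 ± 0.15 (0.511), and Ppp3cb, a catalytic subunit of calcineurin, 0.01 ± 0.12 (0.947). Epas1 (-0.54, adjusted p = 0.0189) and Hif1a (0.54, edgeR adjusted p = 0.040), oxygen-regulated subunits of the hypoxia-inducible factors, passed on p but not on size. They were picked out after their values were seen. Hif1a was called without LLC 2 or without LLC 3, and Epas1 without LLC 4.

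Markers of other cells were counted beside these results. The counts in this and the next paragraph stand beside 3.99% of all tested genes called lower and 1.65% called higher by edgeR. DESeq2 called 1052 of the 12690 genes, and 27.4% had an unadjusted p under 0.05 in edgeR. Since several members are also heart genes, 10 cardiac markers were read, of which 3 passed the filter and none was called by edgeR or DESeq2 (1 at an unadjusted p under 0.05). The 3 tested were Myh6, Tnnt2 and Myl4. Myh6 was at 3.08 to 7.01 CPM in Control, highest in Control 4, and 1.44 to 3.765 CPM in LLC. Per kilobase of exon in Control, Myh6 was at 0.6125 and Myh7 at 0.3608 CPM per kb. Tnnt2 was at 1.53 to 2.03 CPM in Control and 1.11 to 3.34 CPM in LLC, and Myl4 at 4.60 to 5.93 and 5.365 to 11.1 CPM. The atrial light chain gene Myl7 was at 0 in all 10 libraries and Nppa and Nppb had at most 0.106 CPM. The summed level of the list was 11.6 to 14.6 CPM in Control and 10.5 to 16.1 CPM in LLC. Markers of regenerating or denervated fibers summed to 81.9 to 102.1 CPM in Control and 111.7 to 223.1 CPM in LLC, with 1 of 8 tested called higher by edgeR (Myog, 1.19 ± 0.19, adjusted p = 0.00336) and 3 by DESeq2. DESeq2 also called Gadd45a, a stress gene (edgeR 2.40 ± 0.69, adjusted p = 0.0607, DESeq2 0.0107), and Runx1, a factor raised in denervated muscle (edgeR 2.32 ± 0.79, adjusted p = 0.0981, DESeq2 0.0304). Gadd45a was at 6.90 to 8.20 CPM in Control and 13.2 to 135.0 CPM in LLC, highest in LLC 1, and Myh8, the perinatal myosin, took 38.0 to 48.3 and 38.1 to 59.4 CPM of the sums. Without LLC 1, edgeR called Gadd45a (1.52, adjusted p = 0.0157) and Runx1 (1.196, adjusted p = 0.0231), and it also called Gadd45a without LLC 2, LLC 3 or LLC 4.

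Fibroblast markers summed to 256.4 to 318.7 CPM in Control and 105.9 to 132.7 CPM in LLC, with 7 of 8 called lower and Ly6a called higher. All 8 neutrophil markers were called higher, with sums of 1.27 to 2.62 CPM in Control and 34.4 to 75.5 CPM in LLC. Endothelial markers summed to 299.8 to 384.9 and 319.4 to 364.7 CPM, with 1 of 8 called lower (Kdr, lost without Control 1, Control 3, Control 4 or LLC 6). Their log2 fold changes were positive for 5 of the 8 and negative for 3, and 6 had an unadjusted p under 0.05 in edgeR. In every LLC library 2 of them lay below Control and 1 (Vwf) above, beside 9.57% and 6.4% of all tested genes. Smooth muscle markers, led by Des, which muscle fibers express, summed to 2376 to 2605 and 2553 to 4246 CPM, with 0 of 8 called by edgeR or DESeq2 and 4 at an unadjusted p under 0.05. The members themselves summed to 3939 to 4390 CPM in Control and 1353 to 3624 CPM in LLC. Mitochondrially encoded genes took 28.4% to 30.7% of counts in Control and 22.0% to 27.9% in LLC. The part of these shifts in the levels of the slow genes was not tested.

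Short motifs were searched on both strands in the 250 bases before the RefSeq start of each gene, of which 9 members had a window and Atp2a2 had none. The MEF2 motif was found in 2 of the 9 (Casq2 and Myoz2) and in 3.42% of 27025 genes, and in none of the 6 fast partners with a window. CCACCC was found in 6 of 9 (Myl3, Tnnt1, Tnni1, Tnnc1, Tpm3 and Mb), in 3 of 6 fast partners and in 30.6% of genes. CATTCC, the MCAT core, was found in Myl3 and Tnnc1, in 2 of 6 fast partners and in 14.4% of genes. TATAAA was found in Myl2 and Tnnt1, in 1 of 6 fast partners and in 14.3% of genes, and the E-box CANNTG in 9 of 9 members, 6 of 6 fast partners and 69.3% of genes. The window of Myl2 lies 7762 bases from its main annotated start. Myl3 and Mb, which separated the groups, share CCACCC, and so do Tnnt1 and Tpm3, which lay near 0. These matches are letters in a window and not sites.

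The genes whose profile over the 10 libraries was most like the mean of the members were named by the root mean square difference of standardized log2 CPM, over all tested genes outside the members and their partners. Among the closest, at 0.539 to 0.554, were Igsf1, Ankrd27, Meg3, Tldc1, Cilp2, Cgnl1 and Akap5. The members themselves lay at 0.578 (Myoz2) to 1.23 (Tpm3) from their own mean. Meg3, a long noncoding RNA, was at 11.3, 12.7, 13.7 and 19.8 CPM in Control and 3.30 to 6.72 CPM in LLC. It shared the high value of Control 4 with Myoz2 and Myl3. Akap5, an anchor of protein kinase A, was at 1.16, 1.83, 1.46 and 2.41 CPM in Control and 0.0514 to 0.621 CPM in LLC. Likeness over 10 libraries includes the group difference and the shared library makeup, so it is a description.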

How the data were processed

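The authors sequenced stranded total RNA libraries of 10 muscles from both ends, in 1 lane, mapped them with TopHat2 to mm10 and counted with HTSeq. What the authors deposited is 1 raw count of reads for each gene and animal, without scaling or pooling. Their methods name RefSeq genes and the HTSeq defaults, but the files hold Ensembl identifiers, so it is unsure that this description covers the files, and the Ensembl release is not given in the sources used here. The levels of genes that overlap another gene are therefore uncertain, also where the text does not name the overlap. Among those not named, Ckmt2 shares 5.65% of its exonic length with an antisense gene and Myh7 up to 6.07%. Of 39179 identifiers, 37607 matched a symbol, and coordinates came from GENCODE M21 on the same build.

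From these counts, edgeR 4.0.16 (R 4.3.3) kept 12690 genes by filterByExpr with a count minimum of 10, scaled the libraries by TMM and fitted the group alone by quasi-likelihood, with Benjamini-Hochberg adjustment over all tested genes. SE was the fold change over the root of F. Log2 CPM used a prior count of 2. Floors of 3 counts cover counting error only. No 2 libraries were alike within sampling noise. Alternatives were DESeq2 1.42.0, limma 3.58.1 voom with sample weights, other scaling factors, mitochondrial genes left out, other filters, a block for replicate number, and leaving out each library. Named genes were the members, their partners, from each other list those called (up to 6, by size) and the 4 most abundant, and the 8 most alike in profile, of which 1 is not reported here. Of the marker lists, totals, counts and a few genes are given, some of them chosen after their values were seen. The members and lists were chosen with earlier results of these data known. RNA integrity numbers were above 8 by the labels, with no value per sample.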

Additional observations from a re-analysis of the deposited data

Results flagged for a closer look

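Values far from the rest of their group were sought by the gap to the nearest library over the range of the group, in 38 groups of libraries, of which chance at 1 in 20 would mark 1.9. There were 6, of which 5 concern LLC 1. The groups share libraries and genes and are not independent, so 6 against 1.9 does not measure an excess over chance. The CPM of Atp2a2 in LLC 1 was 38.4 against 18.6 to 21.9 in the other LLC libraries, a gap of 0.834 of the range. The log2 ratio of Myl3 to Myl1 was -9.88 in LLC 1 against -8.62 to -8.20 (gap 0.752). That of Tpm3 to Tpm1 was -7.61 against -9.42 to -8.98 (gap 0.757), that of Atp2a2 to Atp2a1 was -8.86 against -10.1 to -9.92 (gap 0.827), and that of Casq2 to Casq1 was -4.33 against -6.58 to -5.88 (gap 0.689). In Control, the log2 ratio of Tnnc1 to Tnnc2 was -1.99 in Control 3 against -1.53 to -1.48 (gap 0.900). Tnnc2 has few reads. Every one of the fast partners had its lowest LLC value in LLC 1, by differing margins. Casq1 was at 363 CPM in LLC 1 against 1441 to 2314 CPM in the other LLC libraries, and Tpm1 at 5197 against 12920 to 15450 CPM. Atp2a1 was at 17910 against 19690 to 22410 CPM.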

How the results depend on the processing

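The median log2 fold change of the members stayed between -0.61 and -0.37 under all alternatives. The number of members called was 2, against 4 with DESeq2, 1 with at least 10 counts in every sample (where Myl2 was not tested), and 0 to 4 without single libraries. It was 3 with voom and 3 in edgeR with no filter on low counts, namely Myl2, Myl3 and Myoz2 in both. The adjusted p of Myl3 was 0.00826 with voom and 0.0343 in edgeR with no filter. Of the other slow or oxidative genes 3 were called, against 6 with DESeq2, 6 with voom, 1 with at least 10 counts in every sample and 0 to 7 without single libraries. No regulator was called, and 0 to 1 without single libraries. The same replicate numbers do not pair the animals: the correlations of same-numbered libraries were -0.03, 0.01, -0.08 and 0.13. With the replicate block 0 members and 0 other slow genes were called. Slow to fast pairs without overlap were 1, and 1 to 2 without single libraries. The Control spread of 0.24 lay between 0.15 and 0.29 without single Control libraries. Signs turned for 5 of the named genes, none of them called. Tnnt1 was 0.029 with voom, 0.021 with the replicate block and -0.20 to 0.028 without single libraries. Atp2a2 was -0.042 with upper-quartile factors, -0.011 with at least 10 counts in every sample, -0.16 with voom and -0.19 to 0.061 without single libraries. Casq2 was 0.018 with voom and -0.11 to 0.054 without single libraries, and Tnnt3 was -0.064 to 0.0048. Ppp3cb was -0.015 with upper-quartile factors, -0.031 with the replicate block and -0.021 to 0.099 without single libraries. The cause was not tested. Low counts limit Myl2, Tnni1 and Tnnc1.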

Other observations

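The genes named for the most similar profile were chosen because they follow, over the same 10 libraries, a mean that is lower in LLC, so their fold changes are a description and carry no test. The log2 fold change was -3.73 for Cilp2, -2.43 for Akap5, -1.60 for Meg3, -1.499 for Igsf1, -0.56 for Cgnl1, -0.37 for Tldc1 and -0.30 for Ankrd27. Cilp2, Igsf1 and Akap5 have few reads in LLC, where Cilp2 was at 0 to 0.169 CPM.

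Among the slow-fiber genes, the stress-responsive Csrp3 and Ankrd2, which sense load at the Z-disc, were high in 1 Control and 1 LLC library and were picked out after their values were seen. Csrp3 was at 82.5 CPM in Control 4 and 45.7 CPM in LLC 1, against 18.8 to 27.9 CPM in the other Controls and 6.20 to 12.1 CPM in the other LLC libraries. Ankrd2 was at 99.6 and 65.2 CPM in the same libraries, against 46.5 to 58.5 and 12.9 to 31.5 CPM. With all libraries edgeR called neither (Csrp3 -1.38, adjusted p = 0.172, and Ankrd2 -1.29, adjusted p = 0.102). Without LLC 1 it called both, Csrp3 at -2.19 (adjusted p = 0.00483) and Ankrd2 at -1.81 (adjusted p = 0.00166). DESeq2 called Ankrd2 (adjusted p = 0.0407) and not Csrp3 (adjusted p = 0.186), and limma voom with sample weights called both (adjusted p = 0.009 for Csrp3 and 0.000828 for Ankrd2). Without Control 4 the log2 fold change of Csrp3 was -0.65 (edgeR adjusted p = 0.52).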
